A study of Rattus norvegicus with 16 samples.

Results

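The genes described here carry glucose from its entry into the cell to lactate, store it as glycogen, divert it into the pentose phosphate pathway, or respond to low oxygen. They were taken as a list of 32 rat genes by gene name, chosen with earlier results of these data known. They were found on the arrays through the accession of each probe. Of the 32, 31 had a matched probe, out of 15443 gene symbols matched in all; Pgd, 6-phosphogluconate dehydrogenase, had no matched probe and was not analysed here. RNA was measured in brain tissue of rats given an age of 8 weeks, on 16 single-colour Agilent arrays, each holding the RNA of a single sample. The 5 normal controls had no occlusion. The saline group of 5 were stroke models given saline: the middle cerebral artery, which supplies much of the hemisphere, was occluded (MCAo). The hUMSC group of 6 had the same occlusion and received 1000000 hUMSC, human umbilical mesenchymal stem cells, through a vein. Tissue was described as taken at 72 hours. Strain, sex, hemisphere, brain region and time of infusion are not stated, no group is described as sham-operated, and the RNA protocol names a kit for blood that includes removal of globin RNA. They do not say whether the samples of a group came from separate animals, so the p-values measure the spread between these samples.

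Glycolysis begins when hexokinase traps glucose as glucose 6-phosphate, is paced by phosphofructokinase, and ends in pyruvate, which lactate dehydrogenase interconverts with lactate and the monocarboxylate transporters carry across the membrane. Most steps have several isoforms that differ between cell types: Hk1 is the main hexokinase of brain, Hk2 is inducible, and Hk3 is best known from blood and myeloid cells. The pentose phosphate pathway branches off at glucose 6-phosphate and supplies NADPH, which phagocytes use for the oxidative burst and all cells use against oxidants. Hypoxia-inducible factors bind short DNA motifs and raise many glycolytic genes, and prolyl hydroxylases mark the factors for destruction when oxygen is present.

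All values are log2 of the background-subtracted signal minus the 75th percentile of the same array, so 0 is a fairly bright probe. A change is a difference between group means of such values, given with its standard error (SE) from a limma model over all 16 arrays, and it passed the test where the Benjamini-Hochberg adjusted p over 20471 genes was under 0.05. Between 72.3% and 77.6% of probes were well above background per array and no probe was saturated. The number of arrays limits the precision. The saline group was not uniform: on the first principal component of all genes, which held 64.9% of the variance, saline replicates 1 and 5 lay at -26.4 and -43.5, between the controls (-70.0 to -63.4) and the other saline samples (31.1 to 32.5). The hUMSC samples lay at 26.6 to 70.8. Arrays came from 2 slides, and each slide held all 3 groups. The labelled tissue showed its own markers: the mean level of 13 neuronal genes was 2.72 to 2.77 in controls.

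The largest changes among the 31 genes were in the hexokinases. Hk2 and Hk3 rose in both occluded groups against control, while Hk1, the constitutive brain form, fell in hUMSC against control and did not pass in saline against control. The probe of Hk2 (NM_012735) read -5.59, -4.82, -5.02, -5.78 and -5.36 in controls 1 to 5 and -4.34, -3.25, -3.41, -3.53 and -4.51 in saline samples 1 to 5. In the hUMSC samples it ran from -3.58 through a median of -3.25 to -3.04. Neither occluded group overlapped the controls, and within the saline group replicates 1 and 5 were nearest to them. The change in Hk2 was 1.51 ± 0.24 in saline against control (2.84-fold, adjusted p = 0.00115) and 2.01 ± 0.23 in hUMSC against control (4.03-fold, adjusted p = 1.2e-05).

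Hk3 (NM_022179) was dim in controls, well above background on 3 of the 5 arrays, with levels of -6.58, -6.31, -5.35, -7.45 and -7.59. In saline it read -2.80, -0.50, -0.62, -1.09 and -4.30, and in hUMSC it ran from -0.73 through -0.33 to 0.36. All 11 occluded samples were above every control, and saline replicate 5 was the lowest of them. Hk3 changed by 4.80 ± 0.64 in saline against control (27.8-fold, adjusted p = 0.000338) and by 6.41 ± 0.61 in hUMSC against control (85.0-fold, adjusted p = 3.34e-06). The size of both changes depends on how background is removed: with a normexp correction of the raw signals, Hk3 changed by 2.83 and 4.19, and Hk2 by 0.93 and 1.21. Within slide 1 and slide 2 the saline change was 1.48 and 1.55 for Hk2 and 4.78 and 4.82 for Hk3.

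Hk1 (NM_012734) moved the other way by much less. Its levels were 3.92, 3.72, 3.67, 3.89 and 3.85 in controls and 3.76, 3.57, 3.45, 3.75 and 3.89 in saline, and the groups overlapped. In hUMSC it ran from 3.20 through 3.39 to 3.57, below every control. The difference was -0.13 ± 0.10 in saline against control (adjusted p = 0.352) and -0.43 ± 0.10 in hUMSC against control (adjusted p = 0.00133).

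**Figure D1:**
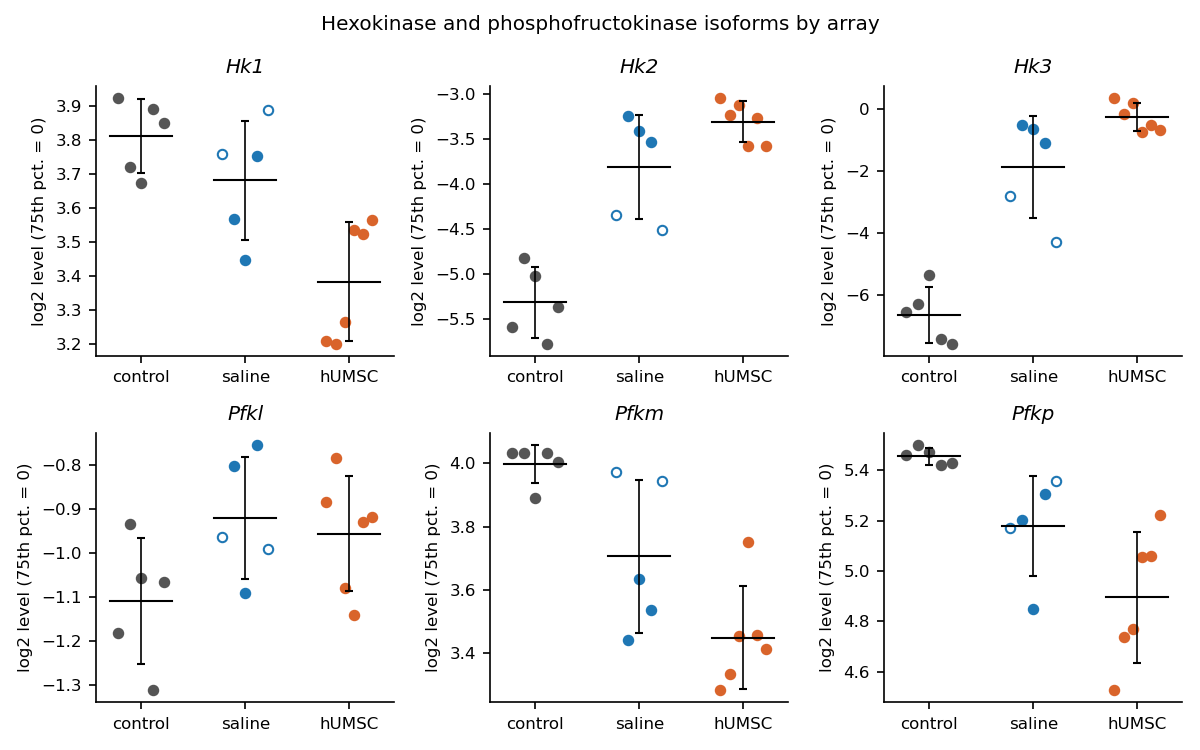
Levels of the hexokinases (top) and phosphofructokinases (bottom) on each array, as log2 signal relative to the array's 75th percentile; bars are the group mean ± SD, n = 5, 5 and 6, each panel has its own axis, and open circles are saline replicates 1 and 5. Hk2 and Hk3 are above every control in all 11 occluded samples, and those open circles are the nearest to the controls.

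Unlike the hexokinases, no phosphofructokinase isoform passed the test as higher in any comparison. The muscle form Pfkm and the platelet form Pfkp fell in hUMSC against control, and the liver form Pfkl did not pass the test in any comparison. Pfkm read 4.03, 4.03, 3.89, 4.03 and 4.00 in controls, 3.97, 3.44, 3.63, 3.54 and 3.94 in saline, and 3.28 through 3.43 to 3.75 in hUMSC. Saline replicates 1 and 5 lay within the control range and all hUMSC samples lay below it. Pfkm differed by -0.29 ± 0.11 in saline against control (adjusted p = 0.0547) and fell by 0.55 ± 0.10 in hUMSC against control (adjusted p = 0.000355).

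Pfkp read 5.46, 5.50, 5.47, 5.42 and 5.43 in controls, 5.17, 5.20, 4.85, 5.31 and 5.36 in saline, and 4.53 through 4.91 to 5.22 in hUMSC. Every occluded sample was below every control. Pfkp nevertheless missed the threshold in saline against control (-0.28 ± 0.12, adjusted p = 0.0960), and it fell by 0.56 ± 0.12 in hUMSC against control (adjusted p = 0.000739). Within slides the saline value was -0.40 and -0.09. Pfkl read -1.18, -0.93, -1.06, -1.31 and -1.07 in controls, -0.96, -0.80, -1.09, -0.75 and -0.99 in saline, and -1.14 through -0.92 to -0.79 in hUMSC, with overlap throughout. Its difference from control was 0.19 ± 0.09 in saline (adjusted p = 0.122) and 0.15 ± 0.09 in hUMSC (adjusted p = 0.127).

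Of the other genes of glucose entry and early glycolysis, Slc2a3 and Gpi fell in hUMSC against control. Slc2a3, the neuronal glucose transporter GLUT3, read -2.33, -2.41, -2.27, -2.08 and -2.25 in controls and -2.49, -2.38, -2.65, -2.65 and -2.52 in saline, where a single saline sample, replicate 2, reached the control range. It ran from -3.86 through -2.95 to -2.61 in hUMSC, below every control. The difference was -0.27 ± 0.18 in saline (adjusted p = 0.278) and -0.80 ± 0.17 in hUMSC (adjusted p = 0.00105), and within slides the hUMSC difference was -1.23 and -0.65. Gpi, which converts glucose 6-phosphate to fructose 6-phosphate, fell by 0.22 ± 0.07 in saline (adjusted p = 0.0439) and by 0.35 ± 0.07 in hUMSC. Its saline call was lost on leaving out any single sample other than saline replicate 1 or 5 (adjusted p up to 0.103). Pfkfb3, the enzyme that makes the activator of phosphofructokinase, had probes that disagreed: the brighter gave -0.07 in saline and -0.25 in hUMSC, the other 0.59 and 0.10. The brighter probe's hUMSC difference passed (adjusted p = 0.0208), but not with normexp (-0.12) and not in the fits without control replicate 3 or 4.

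In lower glycolysis, from aldolase to pyruvate kinase, 7 of 9 genes fell in hUMSC against control, all by less than 0.5, where 37.3% of all genes were called lower, and 1 of 9, Aldoa, fell in saline against control, where 13% were. Aldoa, the widespread aldolase, read 5.09, 5.20, 5.23, 5.10 and 5.15 in controls, 4.98, 4.86, 4.87, 5.00 and 5.06 in saline, and 4.69 through 4.85 to 4.94 in hUMSC. All 11 occluded samples were below the controls. It fell by 0.20 ± 0.06 in saline (adjusted p = 0.0278) and by 0.30 ± 0.06 in hUMSC (adjusted p = 0.000428). The saline call was lost without control replicate 2, 3 or 5 or saline replicate 2 or 3 (adjusted p up to 0.0751). Aldoc, the brain aldolase typical of astrocytes, fell by 0.36 ± 0.11 in hUMSC.

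Tpi1, triose phosphate isomerase, fell by 0.40 ± 0.08 in hUMSC, Pgam1, phosphoglycerate mutase, by 0.26 ± 0.06, and Gapdh by 0.18 ± 0.05. Gapdh is often used as a reference gene, and its 3 probes gave -0.19 to -0.17 in that comparison. Pgk1, phosphoglycerate kinase, differed by -0.12 ± 0.05 (adjusted p = 0.0417), which is no more than the median of all genes there (-0.13), and it passed in 1 of 11 fits that left out a sample, that without hUMSC replicate 8. Quantile scaling gave -0.30 for Gapdh and -0.25 for Pgk1. Pkm, pyruvate kinase, did not pass (0.08, adjusted p = 0.452), and its second probe gave -0.43.

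The enolases parted. Eno2, the neuronal enolase, read 4.88, 5.08, 4.88, 4.88 and 4.95 in controls, 4.84, 4.71, 4.72, 4.67 and 4.80 in saline, and 4.26 through 4.54 to 4.62 in hUMSC. The groups formed 3 ranges that did not overlap. Eno2 differed by -0.18 ± 0.07 in saline against control (adjusted p = 0.0725), and fell by 0.43 ± 0.07 in hUMSC against control (adjusted p = 0.000123). Eno1, the enolase of most other cells, ran from 4.90 to 5.10 in controls and from 4.99 to 5.09 in hUMSC, and differed by 0.04 (adjusted p = 0.515).

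Among the genes of lactate handling, Slc16a3 rose and Ldhb fell in hUMSC against control. Slc16a3, the lactate exporter MCT4, read -1.84, -1.78, -1.65, -1.58 and -1.77 in controls, -1.47, -0.59, -1.05, -1.24 and -1.47 in saline, and -0.97 through -0.55 to -0.03 in hUMSC. Every occluded sample exceeded every control. It differed by 0.56 ± 0.20 in saline against control (adjusted p = 0.0509) and rose by 1.19 ± 0.19 in hUMSC against control (2.29-fold, adjusted p = 0.000122), with 1.68 within slide 1 and 0.92 within slide 2. Slc16a1, the more general transporter MCT1, rose by 0.24 ± 0.09 in hUMSC against control (adjusted p = 0.0259), and this call was lost without control replicate 4 or hUMSC replicate 9 (adjusted p up to 0.0612).

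Ldhb, whose subunit predominates in tissue that oxidises lactate, read 5.57, 5.55, 5.54, 5.52 and 5.46 in controls, 5.44, 4.84, 5.07, 4.75 and 5.49 in saline, and 4.68 through 4.80 to 5.16 in hUMSC. Saline replicates 1 and 5 were close to the controls, and the other saline samples lay among the hUMSC samples. Ldhb fell by 0.41 ± 0.14 in saline (adjusted p = 0.0431) and by 0.64 ± 0.13 in hUMSC (adjusted p = 0.000842). The saline call held in 2 of 10 fits that left out a sample, those without saline replicate 1 or 5. Ldha, the subunit typical of glycolytic tissue, read 5.27, 5.59, 5.08, 5.68 and 5.31 in saline beside 5.34, 5.46, 5.46, 5.37 and 5.28 in controls, spread to both sides of them, and did not pass in any comparison. Pdk1, which switches off pyruvate dehydrogenase, did not pass either (-0.25 ± 0.12 in saline and -0.03 in hUMSC).

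Both measured genes of the non-oxidative pentose phosphate pathway rose in hUMSC against control. Taldo1, transaldolase, read 2.79, 2.78, 2.74, 2.79 and 2.75 in controls, 2.92, 3.25, 3.26, 3.30 and 2.86 in saline, and 3.24 through 3.39 to 3.53 in hUMSC. All 11 occluded samples were above the controls, saline replicates 1 and 5 by the least. Taldo1 rose by 0.35 ± 0.09 in saline (adjusted p = 0.0117) and by 0.63 ± 0.08 in hUMSC (adjusted p = 3.34e-05). Tkt, transketolase, differed by 0.15 ± 0.10 in saline (adjusted p = 0.258) and rose by 0.33 ± 0.09 in hUMSC (adjusted p = 0.00722), or by 0.20 with quantile scaling. Of the glycogen genes, Pygb, the brain glycogen phosphorylase, fell by 0.23 ± 0.08 in hUMSC (adjusted p = 0.0217, lost without control replicate 4 or 5 or hUMSC replicate 7), and Pgm1, phosphoglucomutase, did not pass (-0.17, adjusted p = 0.0649).

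The genes known as hypoxia targets did not move together. Adm, the vasodilator peptide adrenomedullin, read -0.67, -0.62, -0.39, -0.65 and -1.02 in controls, -0.62, 0.47, 1.14, 0.78 and -0.72 in saline, and 0.15 through 0.79 to 1.15 in hUMSC. Saline replicates 1 and 5 stayed in the control range and all other occluded samples were above it. Adm rose by 0.88 ± 0.31 in saline (1.84-fold, adjusted p = 0.0489) and by 1.40 ± 0.30 in hUMSC (2.65-fold, adjusted p = 0.000969). Without saline replicates 1 and 5 the saline change was 1.47, and the saline call was lost on leaving out any other sample (adjusted p up to 0.132).

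Bnip3, a mitochondrial protein that promotes mitophagy, went down. It read 3.64, 3.63, 3.53, 3.66 and 3.58 in controls, 3.45, 2.88, 3.32, 3.17 and 3.62 in saline, and 2.94 through 3.13 to 3.35 in hUMSC, with saline replicate 5 alone inside the control range. It fell by 0.32 ± 0.11 in saline (adjusted p = 0.0487) and by 0.49 ± 0.11 in hUMSC (adjusted p = 0.00127). Egln3, a prolyl hydroxylase of the factors, fell by 0.24 ± 0.07 in saline (adjusted p = 0.0282) and differed by -0.15 in hUMSC (adjusted p = 0.0889). The saline call of Bnip3 held in 2 of 10 fits that left out a sample, those without saline replicate 1 or 5. That of Egln3 held in 4, and was lost without control replicate 1, 2 or 3 or saline replicate 2, 3 or 4. Hif1a, the factor's oxygen-regulated subunit, whose level is set mainly through its protein, differed by -0.07 ± 0.11 in saline and 0.25 ± 0.11 in hUMSC (adjusted p = 0.0506).

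The promoters of 4 of these genes are shown because their changes differed: Adm and Slc16a3 rose in hUMSC against control, Bnip3 fell, and Ldha did not pass. Each is the 250 bases before the annotated start in RefSeq, build GRCr8, read 5′ to 3′ on the gene's strand. The positions are chr1:174179950-174180199 (plus strand) for Adm, chr10:106712078-106712327 (plus) for Slc16a3, chr1:203154963-203155212 (minus) for Bnip3 and chr1:106507842-106508091 (plus) for Ldha. Capitals mark ACGTG or GCGTG, the core letters of the site of hypoxia-inducible factors, on either strand, so that the reverse forms read CACGT and CACGC. The sequence CACGTG, an E-box bound by other factors too, holds ACGTG on both strands.
Adm: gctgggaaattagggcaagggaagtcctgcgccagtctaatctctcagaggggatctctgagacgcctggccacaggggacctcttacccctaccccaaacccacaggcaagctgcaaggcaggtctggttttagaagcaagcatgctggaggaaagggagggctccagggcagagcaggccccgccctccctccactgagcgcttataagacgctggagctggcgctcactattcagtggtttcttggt
Slc16a3: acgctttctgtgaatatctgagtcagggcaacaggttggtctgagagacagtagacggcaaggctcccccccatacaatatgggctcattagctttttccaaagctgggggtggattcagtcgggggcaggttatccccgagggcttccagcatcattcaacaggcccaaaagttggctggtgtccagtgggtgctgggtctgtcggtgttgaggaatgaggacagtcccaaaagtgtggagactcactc
Bnip3: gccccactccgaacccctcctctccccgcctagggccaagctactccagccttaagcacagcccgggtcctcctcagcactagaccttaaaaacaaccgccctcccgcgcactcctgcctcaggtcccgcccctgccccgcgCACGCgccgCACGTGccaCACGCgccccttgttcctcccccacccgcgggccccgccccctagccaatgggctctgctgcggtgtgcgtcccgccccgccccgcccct
Ldha: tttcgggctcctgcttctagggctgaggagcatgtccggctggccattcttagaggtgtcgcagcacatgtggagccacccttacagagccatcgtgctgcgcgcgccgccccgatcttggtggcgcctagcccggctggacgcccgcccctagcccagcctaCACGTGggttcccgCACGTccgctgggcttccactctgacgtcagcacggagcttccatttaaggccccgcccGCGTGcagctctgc
The Ldha and Bnip3 windows each held 4 matches, and those of Adm and Slc16a3 held 0. The rest of the list did not divide in this way. Among other genes that rose in hUMSC against control, Taldo1 held 3 GCGTG, Slc16a1 held 2 ACGTG and 1 GCGTG, and Hk3 held 1 ACGTG. Hk2 and Tkt rose too and held 0. Among those that fell, Gpi and Tpi1 held 0 and the rest with an entry held a match. Of 34 windows of 30 listed genes (Slc2a3 and Pgk1 had no entry), 22 held a match to either motif, or 64.7%, beside 36.7% of 33469 windows of all genes. A match describes letters in this window and says nothing of binding.

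**Figure D2:**
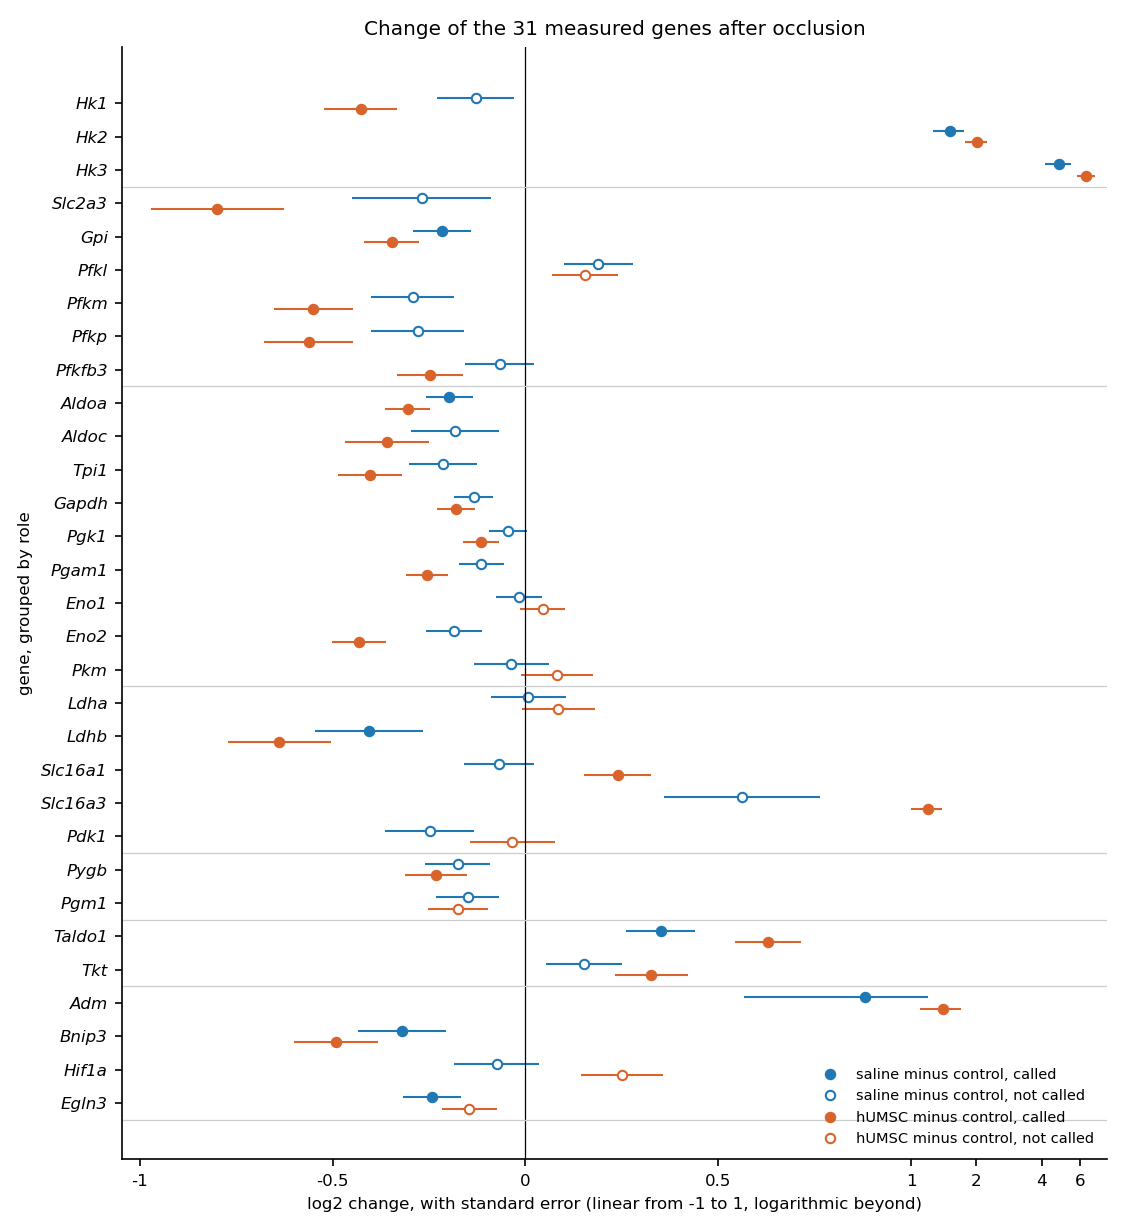
Change of each of the 31 measured genes in saline and in hUMSC against control, as a log2 difference with its SE; the axis is linear from -1 to 1 and logarithmic beyond, and filled points have an adjusted p under 0.05. Hk2, Hk3, Slc16a3, Taldo1 and Adm lie to the right in both comparisons, and most genes of lower glycolysis lie to the left by less than 0.5.

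Counted over the list, 4 of 31 genes were higher (Hk2, Hk3, Taldo1 and Adm) and 5 lower (Gpi, Aldoa, Ldhb, Bnip3 and Egln3) in saline against control. Of all genes tested, 27.3% were called there, 14.3% higher and 13% lower, and the members' shares were close to these with this scaling. With median scaling 12 members were lower (23.9% of all genes), with quantile scaling 12 (16.8%), with array weights 14 (25.1%) and without saline replicates 1 and 5, 13 (24.4%). The groups did not overlap for 8 of 31, against 18.4% of all genes, and the median change was -0.13, against -0.04. In hUMSC against control 7 of 31 were higher, beside 24.7% of all genes, and 16 lower, beside 37.3%, with 62% of all genes called in all. There the groups did not overlap for 19 of 31, against 46.2% of all genes, and the median change was -0.17, against -0.13. The comparisons share the control samples, so they are not independent. In bulk tissue, fewer cells of a type and less RNA per cell cannot be told apart.

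Other genes of the same pathways, from a wider list of 102 of which 92 could be tested, gave 11 higher and 18 lower in saline and 19 higher and 30 lower in hUMSC, both against control. The shares of all genes called higher and lower, 14.3% and 13% in saline and 24.7% and 37.3% in hUMSC, are the background for these counts and for those of each list below. Of 19 further genes of glycolysis and glucose uptake, 5 rose and 3 fell in saline. The fructose transporter Slc2a5, known from microglia, rose by 1.67 ± 0.24 in saline and 1.90 ± 0.23 in hUMSC. Pfkfb1 rose by 1.11 ± 0.26 and 1.90 ± 0.25, while its relative Pfkfb2 fell by 0.49 ± 0.14 and 0.69 ± 0.13; both belong to the family of Pfkfb3. Gpd1, which links glycolysis to glycerol lipids, rose in both, by 1.12 ± 0.20 in hUMSC.

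Among 16 further genes of lactate and pyruvate, none rose, 5 fell in saline and 8 fell in hUMSC. They included Pdp1, the phosphatase that activates pyruvate dehydrogenase (-0.57 ± 0.18 and -0.94 ± 0.17), Pdhb, a subunit of that enzyme (-0.33 ± 0.07 and -0.41 ± 0.07), and Slc16a7, the neuronal transporter MCT2 (-0.29 ± 0.08 and -0.47 ± 0.08). Of 14 further glycogen genes, 0 passed in saline in limma, and in hUMSC 4 rose and 3 fell. Pygl, the liver form of glycogen phosphorylase, rose by 0.79 ± 0.14 in hUMSC, where Pygb fell. Of 10 further pentose phosphate genes, 1 rose and 2 fell in saline, and 3 rose and 2 fell in hUMSC. H6pd, a pentose phosphate enzyme of the endoplasmic reticulum, rose by 1.26 ± 0.21 in hUMSC. Tigar, which favours the pathway by restraining glycolysis, fell by 0.22 ± 0.08 and 0.44 ± 0.07.

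Of 33 further hypoxia regulators and targets, 5 rose and 8 fell in saline, and 5 rose and 12 fell in hUMSC. Hmox1, haem oxygenase, which also answers haem and oxidants, rose by 2.47 ± 0.52 and 3.71 ± 0.49, and Loxl2, a matrix oxidase, by 1.71 ± 0.34 and 2.24 ± 0.32. Vegfa, the angiogenic factor, fell by 0.87 ± 0.19 and 1.18 ± 0.18, and Ankrd37 by 0.69 ± 0.11 and 0.96 ± 0.10.

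Whether isoforms of a step moved apart was tested within arrays, where any difference in scaling between arrays cancels. For 10 isoform pairs in 3 comparisons, the log2 ratio of both probes on each array was compared between groups by a two-sided exact permutation test, adjusted over all 30. The smallest p that 5 against 5 can give is 0.00794, and 5 against 6 can reach 0.00216. In saline against control 6 pairs passed, each at an adjusted p of 0.0159 with no overlap between groups. Hk1 over Hk2 changed by -1.64, Hk1 over Hk3 by -4.92 and Hk2 over Hk3 by -3.29, so Hk3 gained on both. Pfkl gained on Pfkm by 0.48 and on Pfkp by 0.47, and Slc16a3 gained on Slc16a1 by 0.63 (the ratio Slc16a1 over Slc16a3 changed by -0.63).

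In hUMSC against control 8 pairs passed, each at an adjusted p of 0.0144 in the exact test. The hexokinase ratios changed by -2.44, -6.84 and -4.40 in the same order, Pfkl over Pfkm by 0.70, Pfkl over Pfkp by 0.72 and Slc16a1 over Slc16a3 by -0.95. Eno1 over Eno2 changed by 0.48 and Ldha over Ldhb by 0.72. In saline against control those last pairs changed by 0.17 (exact adjusted p = 0.163) and 0.41 (exact adjusted p = 0.190). For Ldha over Ldhb the saline samples were split: replicates 1 and 5 lay near the controls. Without them, an exclusion chosen after seeing the data, the change was 0.71. The ratios Pfkm over Pfkp and Aldoa over Aldoc changed by -0.01 to 0.05 against control and did not pass. Normexp correction reduced the hexokinase ratios to -1.07, -2.96 and -1.90 in saline against control, and all 3 still passed. Leaving out any 1 control ended the call of Pfkl over Pfkm in saline against control.

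**Figure D3:**
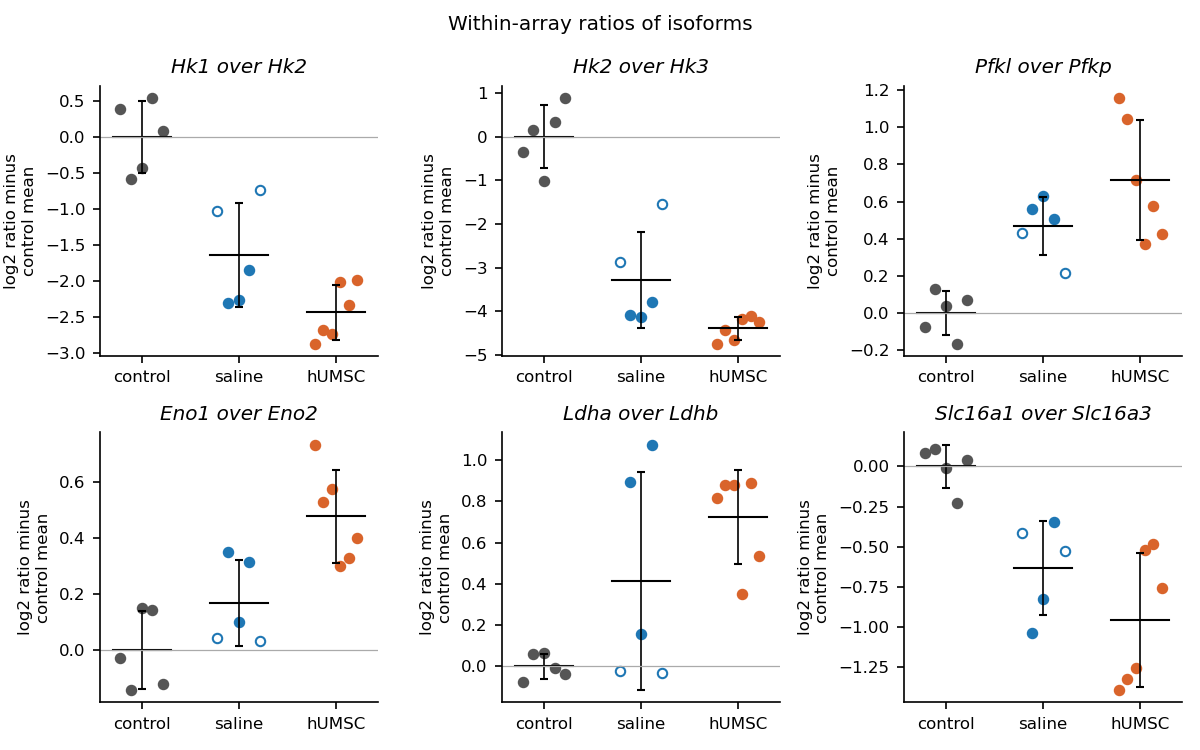
Within-array log2 ratio of 6 isoform pairs, each as the difference from the control mean; bars are the group mean ± SD, n = 5, 5 and 6, and open circles are saline replicates 1 and 5. Hk1 over Hk2 and Hk2 over Hk3 fall and Pfkl over Pfkp rises in every occluded sample relative to the controls, while Ldha over Ldhb is split within the saline group.

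Whether the occluded groups differed with the infused cells was asked of hUMSC against saline. There 3 of 31 genes were higher, beside 4.86% of all genes, and 1 lower, beside 7.96%, with 12.8% of all genes called in all. The median change was -0.05, against -0.07 over all genes, and the groups did not overlap for 1 of 31, Eno2, against 4.19%. Slc16a1 rose by 0.31 ± 0.09 (adjusted p = 0.0369), Slc16a3 by 0.63 ± 0.19 (1.55-fold, adjusted p = 0.0455) and Taldo1 by 0.28 ± 0.08 (adjusted p = 0.0455), and Eno2 fell by 0.25 ± 0.07 (adjusted p = 0.0372). Slc16a1 read -1.32, -1.05, -1.29, -1.01 and -1.42 in saline and -1.16 through -0.89 to -0.70 in hUMSC, where 5 of 6 samples were above every saline sample.

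None of these 4 calls held when saline replicates 1 and 5 were left out in limma, nor when only these groups entered the fit, where the lowest adjusted p of the 31 was 0.0984. The share of all genes called fell from 12.8% to 0.112% and 0.2% in these fits, so the loss was not particular to these genes. Each call was also lost without saline replicate 1 or 5 alone and without hUMSC replicate 5, 6 or 7 alone, that of Slc16a3 without saline replicate 4, and those of Slc16a1 and Taldo1 without hUMSC replicate 9. Without saline replicate 1 or 5 or hUMSC replicate 5, 6 or 7, the share of all genes called was 0.894% to 3.69%. Without saline replicates 1 and 5, Slc16a1 differed by 0.21, Slc16a3 by 0.43, Taldo1 by 0.13 and Eno2 by -0.20. Within slides 1 and 2 Slc16a3 differed by 0.96 and 0.60, Slc16a1 by 0.36 and 0.28, Taldo1 by 0.33 and 0.28, and Eno2 by -0.40 and -0.16. Hk2 and Hk3 did not pass (0.50, 95% interval 0.01 to 1.00, and 1.61, interval 0.32 to 2.91), and without saline replicates 1 and 5 they differed by 0.09 and 0.49. Adm differed by 0.52 (interval -0.12 to 1.16), and by -0.06 without those samples. Slc2a3 differed by -0.53 ± 0.17 (adjusted p = 0.0539), Hk1 by -0.30 ± 0.10 (adjusted p = 0.0515) and Hif1a by 0.33 ± 0.11 (adjusted p = 0.0539). The slides were unevenly divided, with 2 and 4 hUMSC and 3 and 2 saline samples on slides 1 and 2. With slide as a block in limma, 6 members were higher and 6 lower, beside 13% and 18.2% of all genes. The 4 genes called without the block were among them, joined by Hk3 (1.91, adjusted p = 0.0225), Tkt (0.23) and Hif1a (0.34) on the higher side and Hk1 (-0.35), Slc2a3 (-0.61), Pfkm (-0.28), Pfkp (-0.34) and Pgam1 (-0.16) on the lower.

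Of the ratios, Hk1 over Hk3 changed by -1.91 (exact adjusted p = 0.0325), Hk2 over Hk3 by -1.11 (0.0144) and Eno1 over Eno2 by 0.31 (0.0344) in hUMSC against saline. Without saline replicate 5 the first 2 were -1.25 and -0.68, and without replicates 1 and 5 none of the 10 pairs passed in the exact test. Hk1 over Hk3 held in 2 and Eno1 over Eno2 in 4 of 11 fits that left out a sample. Among 92 further pathway genes 5 rose and 3 fell. H6pd rose by 0.75 ± 0.21, Pfkfb1 by 0.79 ± 0.25, Pygl by 0.46 ± 0.14, Pgm2 by 0.33 ± 0.09 and Pfkfb4 by 0.32 ± 0.08, while Ak4 fell by 0.36 ± 0.09, P4ha2 by 0.34 ± 0.09 and Pdha1 by 0.23 ± 0.07.

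Markers of other cell types moved with the groups. The mean level of 15 genes of microglia and macrophages ran from -0.66 to -0.40 in controls, from 0.64 to 2.66 in saline and from 2.49 to 3.21 in hUMSC. Saline replicates 1 and 5, at 1.49 and 0.64, were the lowest of the occluded samples, as they were for Hk2, Hk3, Slc16a3, Taldo1 and Adm. The same held for neutrophil genes (-4.64 and -5.73), reactive astrocyte genes (-0.93 and -1.24) and genes of dividing cells (-2.03 and -2.61), so this order was not particular to phagocyte markers. In saline against control 13 of the 15 rose and 0 fell. Neutrophil genes, 6 tested of 10, ran from -6.35 to -4.98, from -5.73 to -2.45 and from -2.95 to -1.54, and Mpo, Elane, Cxcr2 and Ngp were not tested. Reactive astrocyte genes ran from -2.58 to -2.09, from -1.24 to 1.20 and from 0.50 to 1.64.

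The mean of 13 neuronal genes ran from 2.72 to 2.77 in controls, from 2.18 to 2.74 in saline and from 1.87 to 2.26 in hUMSC. The mean of 9 general astrocyte genes was 2.99 to 3.23 over all samples, while single genes went both ways: of 10, Aldoc included, 4 were higher and 4 lower in hUMSC against control. Oligodendrocyte genes ran from 2.43 to 2.59, from 1.79 to 2.36 and from 2.06 to 2.29, and endothelial genes from -1.40 to -1.19, from -1.60 to -1.17 and from -1.19 to -0.53. Genes of dividing cells ran from -3.88 to -3.79, from -2.61 to -0.51 and from -0.98 to 0.14. Red cell genes, 4 tested of 9, ran from 0.31 to 3.59, from 0.12 to 2.50 and from -0.53 to 1.05. Eno2 and Aldoc stood in the neuronal and astrocyte lists as well and were left out of these means. The part of these cell types in the changes above was not tested.

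**Figure D4:**
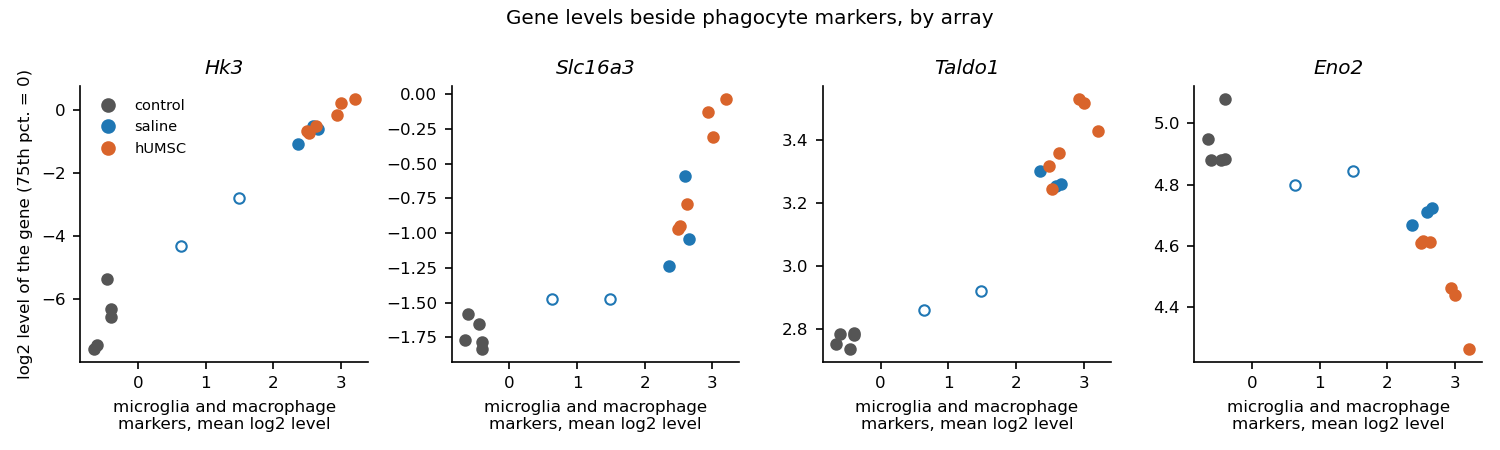
Level of Hk3, Slc16a3, Taldo1 and Eno2 on each array (vertical, log2 relative to the array's 75th percentile) beside the mean level of 15 microglia and macrophage genes on the same array (horizontal); open circles are saline replicates 1 and 5. Those samples have marker means of 1.49 and 0.64, between the controls (-0.66 to -0.40) and the other occluded samples. They lie between them for Hk3, Slc16a3, Taldo1 and Eno2 as well.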

How the data were processed

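Brain RNA was labelled with Cy3 and hybridised to 16 Agilent arrays. The processed signal is an intensity per the file headers; Agilent Feature Extraction 11.0.1.1 (100.0.1.1 in the submitters' processing notes) subtracted background and corrected spatial trends on each array and scaled nothing across arrays. Raw spot and local background brightness are intensities too, per the file headers. Marks for spots well above background, outlying or saturated are yes-or-no flags per the file headers. The table of values the authors deposited was compared with these: it is an intensity, the mean processed signal of each probe.

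Outlier spots were dropped, log2 signals were averaged by probe, and each array's 75th percentile over non-control probes was subtracted. Of 30367 probes, 18355 matched 15443 symbols through RefSeq accessions. Probes well above background on 5 or more arrays were tested, and the brightest stood for its gene, which left 20471 genes. All 31 measured members were tested, and all but Hk3 were well above background on every array. A limma 3.58.1 model (R 4.3.3) with a mean per group and 13 residual degrees of freedom gave all 3 comparisons, with Benjamini-Hochberg adjustment over the genes and a threshold of 0.05. The model was tested on simulated data in which few genes changed. In saline against control it called 83% of 100 log2 changes of 1 and 50% of 100 log2 changes of 0.5. A change of 0.5 or less that did not pass is therefore not shown to be absent. Isoform ratios were tested by exact permutation.

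Members and gene lists were chosen with earlier results of these data known. Every member is described, and of the further pathway genes those named are up to 3 per list and direction with the largest change past the threshold, except 2 that are not reported here. Genome positions were used only for promoters from RefSeq (GRCr8). Alternatives covered background correction, scaling, the filter, slide, array weights, replicate numbers and left-out samples. Leaving out saline replicates 1 and 5, or hUMSC replicates 5 and 6, was chosen after seeing the data.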

Additional observations from a re-analysis of the deposited data

Results flagged for a closer look

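Of 93 groups (31 genes in 3 groups), 3 held a sample far from the others by Dixon's criterion, where chance gives about 1 in 20 groups, or 4.65 here. Pfkm in control replicate 3 was 3.89, where the nearest control was 4.00 and the far end 4.03. Pfkm in hUMSC replicate 8 was 3.75, where the nearest sample was 3.46 and the far end 3.28. Pkm in saline replicate 4 was 3.76, where the nearest sample was 3.45 and the far end 3.35.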

How the results depend on the processing

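No called change of the 31 members or the 10 isoform ratios reversed its direction under any alternative run; the further pathway genes and markers were not followed singly. In saline against control the 5 lower genes became 2 with normexp (9.34% of all genes called lower) and 12 with median scaling (23.9%). They became 12 with quantile scaling (16.8%), 2 with no filter (7.14%), 1 within slide 1 (4.75%) and 0 within slide 2 (0.00488%). Array weights gave 14 (25.1%), and the fit without saline replicates 1 and 5 gave 13 (24.4%). On leaving out a replicate 0 to 8 were lower (5.64% to 19.5%). The 4 higher genes became 2 within slide 1 (10.2% of all genes called higher). Within slide 2 they became 0, where 0 of 20471 genes were called higher. On leaving out a replicate they became 3 to 5 (10% to 17.7%). In hUMSC against saline the 3 higher genes became 6 with slide as a block and 0 with no filter, array weights, only these groups, within either slide, without saline replicates 1 and 5 or without hUMSC replicates 5 and 6. The 1 lower gene became 2 with normexp, 3 with the filter on all 16 arrays, 6 with slide as a block, and 0 with median scaling, no filter, array weights, only these groups, within slide 2, without saline replicates 1 and 5 or without hUMSC replicates 5 and 6. Leaving out a replicate gave 0 to 5 for each, where 0.894% to 20.8% of all genes were called. The share of all genes called was 31.2% with slide as a block, 5.09% with no filter, 0.596% with array weights and 0.2% with only these groups. With normexp it was 11.7%, with the filter on all 16 arrays 15.9% and with median scaling 11.5%. It was 5.08% and 0 within slides 1 and 2, 0.112% without saline replicates 1 and 5 and 0.689% without hUMSC replicates 5 and 6. In hUMSC against control the 16 lower genes became 5 within slide 2, where 15.4% of all genes were called lower. On leaving out a replicate they became 13 to 16 (34.5% to 38.3% of all genes). The 7 higher genes became 6 to 8 in those fits, where 23.4% to 24.9% of all genes were called higher. Of isoform pairs called, 6 became 5 to 6 in saline against control, 3 became 1 to 4 in hUMSC against saline and 8 stayed 8 in hUMSC against control on leaving out a replicate. In hUMSC against saline 0 pairs passed without saline replicates 1 and 5 or without hUMSC replicates 5 and 6. Within a slide 0 pairs passed in each comparison, since groups of 2 to 4 are too small for the exact test. Over all genes, the share of calls that were higher in saline against control was 52.4% with the main scaling, 32.7% with median scaling and 43.5% with quantile scaling, and median scaling put the median change of all genes at -0.11 in saline and -0.17 in hUMSC against control. Hk3 could not be tested with the filter on all 16 arrays. The cause of these moves was not tested.

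Control and saline share replicate numbers 1 to 5. With the replicate block, saline against control had 2 members higher and 0 lower, beside 10.5% and 5.17% of all genes. There 0 isoform pairs passed, but an exact test that flips the signs of 5 differences cannot reach the threshold. It therefore says nothing of the ratios. The correlation of deviations of same-numbered samples was -0.05 to 0.18, over 0.1 in 3 of 5 numbers. Samples of different number gave -0.20 to 0.22. Of those, only control 1 with saline 4 (0.22), control 3 with saline 2 (0.21) and control 4 with saline 5 (0.13) were over 0.1. The numbers were not taken as pairs, and these values do not settle whether they mark pairs. No paired analysis was possible for the hUMSC comparisons because their groups share the number 5 only.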
